A study of Mus musculus with 4 samples.

Results

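Transcripts of the Notch pathway were measured in whole cochleae of mice at postnatal day 8 by RNA-seq. The gene set was taken by name, with earlier results of these data known. It held 3 ligands (Jag1, Jag2 and Dll1), 2 receptors (Notch1 and Notch2), the modifier Lfng and 4 transcriptional effectors (Hes1, Hes5, Hey1 and Hey2). All 10 were found among the 37239 genes listed for each library. Mice homozygous for the cello allele of Ikzf2 (Ikzf2cello/cello) were compared with wild-type littermates (Ikzf2+/+), with 2 libraries per genotype. Ikzf2 encodes helios, a zinc finger transcription factor of outer hair cells, and cello is a mutant allele of it. Transcripts of Ikzf2 itself were detected at 17.7 and 16.9 CPM in cello, against 22.9 and 18.5 CPM in wild-type, so its level does not check the genotype labels. The design text calls the libraries biological duplicates. How many animals went into a library is not stated. P-values measure the spread between these 4 libraries. The cello libraries held 42450937 and 47463910 counted alignments and the wild-type libraries 49719984 and 42152616. A single read was worth 0.0201 to 0.0237 CPM.

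Notch receptors are cleaved after they bind a ligand on a neighbouring cell, and the freed intracellular domain joins the DNA-binding protein RBPJ to switch on target genes, above all repressors of the Hes and Hey families. In the developing cochlea Jag1 marks the prosensory domain and later the supporting cells. Nascent hair cells present Dll1 and Jag2 and so keep their neighbours from becoming hair cells, with Notch1 as the main receptor. Lunatic fringe, the product of Lfng, is a glycosyltransferase that adds a sugar to Notch receptors and so changes which ligands activate them. Lfng is used as a marker of supporting cells. The same pathway acts in blood vessels, nerve and glia, all of which a whole cochlea contains, so the values below are not those of the sensory epithelium alone. Sox2 of supporting cells, Myo7a and Pou4f3 of hair cells and Epcam of epithelium in general were well above 1 CPM in all 4 libraries. Atoh1 of young hair cells stayed below 1 CPM.

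To show where RBPJ could bind among these genes, the RefSeq promoter windows (build GRCm38.p6, 250 bases before to 50 bases after the start) were searched on both strands for GTGGGAA, the core letters of the RBPJ motif. A window was at hand for 8 of the 10 genes, not for Hes1 or Hey1. Hes5, Hey2 and Lfng held the core and the other 5 did not, whereas 6.38% of all 32851 windows held it. Hes5 had it 226 and 83 bases before the start, Hey2 207 and 4 bases before it, and Lfng 109 bases before it. In Lfng the core overlaps CACGTG, an E-box of the kind that Hes and Hey proteins can bind, which lay 112 bases before the start. CACGTG was present in 7.15% of all windows and in no other window of these genes. CACNAG, the N-box bound by Hes proteins, was present in 42.5% of all windows and in those of Lfng, Notch1, Notch2 and Dll1. A match of letters does not show binding. The 3 windows with the RBPJ core are shown because they alone hold it among the 8. They are given 5′ to 3′ along the gene from 250 bases before the start to its first 10 bases, with the core in capitals on either strand. Hes5 lies on the plus strand (chr4:154960673-154960932), Hey2 on the minus strand (chr10:30842774-30843033) and Lfng on the plus strand (chr5:140607091-140607350).
Hes5: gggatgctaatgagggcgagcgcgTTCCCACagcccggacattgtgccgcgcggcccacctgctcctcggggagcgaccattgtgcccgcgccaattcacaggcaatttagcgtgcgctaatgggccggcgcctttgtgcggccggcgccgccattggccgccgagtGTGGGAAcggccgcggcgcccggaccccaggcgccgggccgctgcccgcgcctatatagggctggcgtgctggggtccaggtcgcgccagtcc
Hey2: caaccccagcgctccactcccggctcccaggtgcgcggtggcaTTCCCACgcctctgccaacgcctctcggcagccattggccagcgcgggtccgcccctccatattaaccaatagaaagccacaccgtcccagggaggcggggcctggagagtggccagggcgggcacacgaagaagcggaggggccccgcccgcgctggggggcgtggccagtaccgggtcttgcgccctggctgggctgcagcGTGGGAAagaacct
Lfng: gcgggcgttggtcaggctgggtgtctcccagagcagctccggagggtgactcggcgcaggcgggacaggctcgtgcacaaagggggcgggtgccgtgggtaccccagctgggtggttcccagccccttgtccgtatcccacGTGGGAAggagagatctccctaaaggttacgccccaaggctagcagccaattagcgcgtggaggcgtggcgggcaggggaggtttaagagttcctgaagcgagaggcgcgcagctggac

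Lfng had the lowest value relative to wild-type among the 9 genes with enough reads to test, with a mean level 27.3% lower in cello, and Hey1 was second. Neither passed the test. Jag2, Hey2 and Dll1 had higher values in cello. Notch1, Notch2, Hes1 and Jag1 had lower values, by 2.68% to 11.8%. By limma over all 14721 genes tested, 0 of the 9 passed an adjusted p of 0.05, and 0% of all genes did. Adjusted p of the 9 ranged from 0.421 for Lfng to 0.927 for Hes1. An unadjusted p under 0.05 was reached by 1 of the 9 (11.1%), which is Lfng, against 10.9% of all genes tested, so this share was near the background. EdgeR also called 0 of the 9 and 0% of all genes. DESeq2 called 0 of the 9 and 1.32% of all genes. The median log2 fold change, on the log2(CPM + 0.5) scale as cello minus wild-type, was -0.052 over the 9 genes and -0.032 over all genes tested.

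The cello and wild-type libraries did not overlap for 5 of the 9 genes. Notch1, Notch2, Lfng and Hey1 were lower in both cello libraries than in either wild-type library, which is 44.4% of the 9, against 28.7% of all genes tested. Jag2 was higher in both cello libraries, which is 11.1% of the 9, against 16.9% of all genes. After TMM rescaling, which moved the median of all genes to 0.0069, Notch1 and Notch2 overlapped between the genotypes. Lfng and Hey1 (22.1% of all genes were lower without overlap on that scale) and Jag2 (22.4% were higher) did not.

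**Figure D1:**
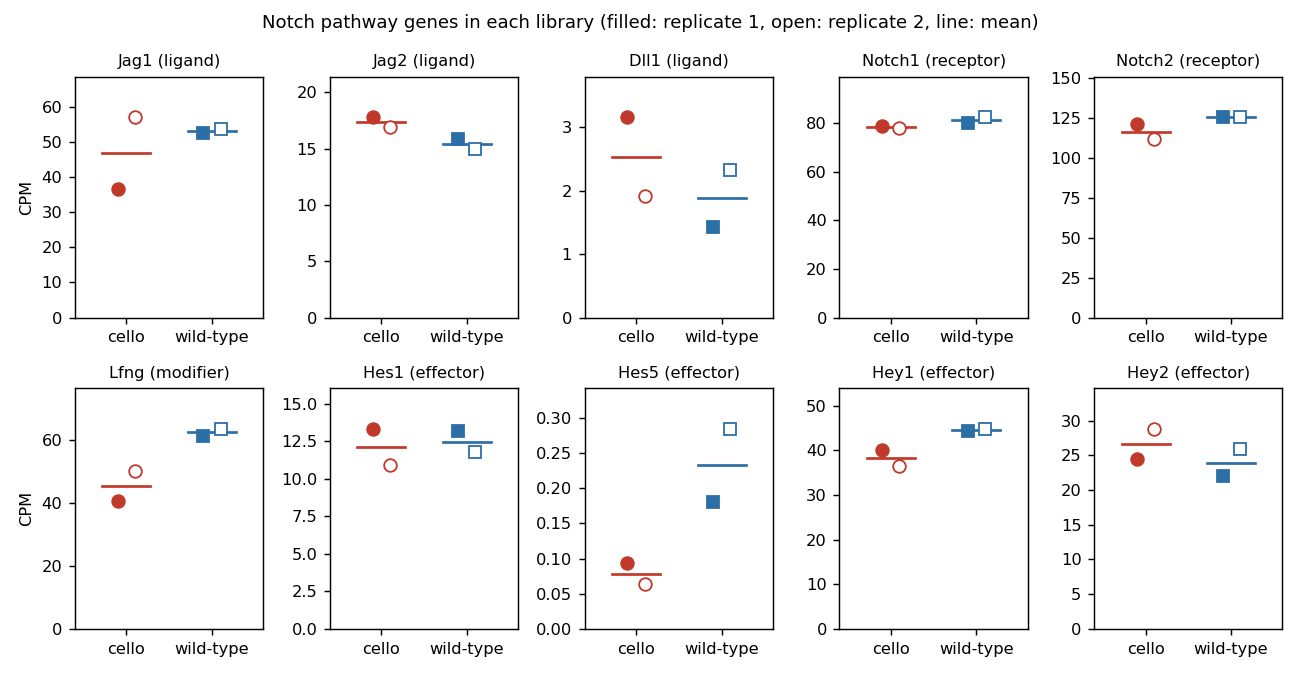
CPM of the 10 genes in each library, in cello (left, circles) and wild-type (right, squares), with a line at each mean and an axis that starts at 0 in every panel. Lfng and Hey1 lie lower in both cello libraries, Jag1 is low in 1 cello library, and Hes5 stays below 0.3 CPM throughout.

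Among the ligands, Jag1 differed more between the 2 cello libraries than between the genotypes. Jag1 had 36.6 and 57.0 CPM in cello, against 52.5 and 53.5 CPM in wild-type. The low value belonged to cello replicate 1, and cello replicate 2 was above both wild-type libraries. Jag1 (chromosome 2, 137081456 to 137116644 of GRCm38, minus strand) averaged 46.8 ± 14.4 CPM in cello and 53.0 ± 0.742 CPM in wild-type (SD, n = 2 each). Its log2 fold change was -0.21 (SE 0.21, 95% interval -0.75 to 0.32; limma, adjusted p = 0.726). Without cello replicate 1 the log2 fold change was 0.10, so its direction rested on that library. The median of the supporting cell list of 20 genes, centred on the mean of the 4 libraries, did not show that gap. It was -0.13 and -0.10 in cello (replicates 1 and 2) and 0.096 and 0.13 in wild-type. Single genes of the list varied. Sox2 had 17.9 and 36.5 CPM in cello and 35.2 and 35.0 CPM in wild-type, and was thus low in cello replicate 1 too. Tectb was also low there, with 748 and 2633 CPM in cello. S100b (1664 and 715 CPM) and Lgr5 (47.5 and 31.7 CPM) were instead higher in cello replicate 1.

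Jag2 (chromosome 12, 112907819 to 112929776, minus strand) had 17.8 and 16.9 CPM in cello, against 15.9 and 14.9 CPM in wild-type. Both cello libraries were above both wild-type libraries, by a small step. Its log2 fold change was 0.17 (SE 0.11, 95% interval -0.10 to 0.43; limma, adjusted p = 0.586). Dll1 was scarce, with 3.16 and 1.92 CPM in cello and 1.43 and 2.32 CPM in wild-type, from 71 to 134 reads a library. The libraries of the genotypes interleaved, and the gaps within cello and within wild-type were 0.60 and 0.55 on the log2 scale. The log2 fold change of Dll1 was 0.35 (SE 0.31, 95% interval -0.44 to 1.14; limma, adjusted p = 0.692), and it shrank to 0.051 without cello replicate 1 and to 0.074 when wild-type replicate 1 was left out. It grew to 0.65 without cello replicate 2 and to 0.62 without wild-type replicate 2. Dll1 (chromosome 17, 15367354 to 15376872, minus strand) shares 20.5% of its exon bases with A930024N18Rik on the opposite strand, which reached 1.61 CPM. The strand setting of the counting is not given in the sources used here, so reads of the pair cannot be told apart.

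The receptors were the steadiest of these genes. Notch1 (chromosome 2, 26457903 to 26516663, minus strand) had 78.9 and 78.1 CPM in cello, against 80.2 and 82.5 CPM in wild-type. All 4 values lay within 0.079 of each other on the log2 scale. The log2 fold change of Notch1 was -0.052 (SE 0.072), with a 95% interval from -0.23 to 0.13 (limma, adjusted p = 0.803). A transcript on the opposite strand, 0610009E02Rik, overlaps its exons and reached 0.644 CPM. Notch2 (chromosome 3, 98013527 to 98150361, plus strand) had 121 and 112 CPM in cello, against 125 CPM in both wild-type libraries. Its log2 fold change was -0.11 (SE 0.079), with a 95% interval from -0.31 to 0.093 (limma, adjusted p = 0.628). It was -0.052 without cello replicate 2. Per kilobase of exons, Notch2 was at 2.02 and 1.89 times the level of Notch1 in the cello libraries and at 2.06 and 2.0 times in the wild-type libraries.

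Lfng had the largest negative fold change of the 9 tested genes. It had 40.8 and 50.3 CPM in cello, against 61.5 and 63.7 CPM in wild-type, from 1731 to 3059 reads a library. Both cello libraries were below both wild-type libraries, and cello replicate 1 was the lowest. Lfng (chromosome 5, 140607320 to 140615545, plus strand) averaged 45.5 ± 6.74 CPM in cello and 62.6 ± 1.57 CPM in wild-type (SD, n = 2 each), a level 27.3% lower in cello. The log2 fold change was -0.46 (SE 0.12, 95% interval -0.77 to -0.16), with an unadjusted p of 0.011 and an adjusted p of 0.421 in limma. It ranged from -0.61 without cello replicate 2 to -0.31 without cello replicate 1. DESeq2 gave an adjusted p of 0.154 and edgeR one of 0.457 for Lfng. Relative to Notch1, a receptor that lunatic fringe modifies, Lfng stood at 2.94 and 3.66 times per kilobase in cello and at 4.36 and 4.39 times in wild-type.

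Of the effectors, Hes1, a repressor that many signals besides Notch induce, did not separate the genotypes. It had 13.4 and 11.0 CPM in cello, against 13.2 and 11.8 CPM in wild-type. Its log2 fold change was -0.042 (SE 0.15, 95% interval -0.42 to 0.33; limma, adjusted p = 0.927). Its direction depended on the libraries used, with 0.095 when cello replicate 2 was left out and 0.039 when wild-type replicate 1 was. Hes1 lies on chromosome 16 (30064384 to 30067796, plus strand). Hey1 (chromosome 3, 8663359 to 8667256, minus strand) had 40.2 and 36.6 CPM in cello, against 44.4 and 44.9 CPM in wild-type. Both cello values were lower, and the wild-type pair lay close together. Hey1 averaged 38.4 ± 2.56 CPM in cello and 44.6 ± 0.382 CPM in wild-type (SD, n = 2 each). Its log2 fold change was -0.22 (SE 0.086), with a 95% interval from -0.44 to 0.0038 (limma, unadjusted p = 0.053, adjusted p = 0.461).

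Hey2, which marks pillar cells in the organ of Corti, had 24.5 and 28.8 CPM in cello, against 22.1 and 25.8 CPM in wild-type. The genotypes interleaved, with replicate 2 the higher in each. Hey2 (chromosome 10, 30832359 to 30842801, minus strand) had a log2 fold change of 0.15 (SE 0.13, 95% interval -0.18 to 0.49; limma, adjusted p = 0.684). Leaving out 1 library moved it between 0.035, without cello replicate 2, and 0.27, without cello replicate 1. The Hey pair therefore leaned opposite ways in value, and per kilobase Hey1 was at 2.31 and 1.78 times Hey2 in cello and at 2.83 and 2.45 times in wild-type. The ratios in cello were both below those in wild-type, and this difference was not tested.

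Hes5, an effector of active Notch signalling in supporting cells of the younger cochlea, was close to the limit of detection. It had 4 and 3 reads in cello and 9 and 12 reads in wild-type, or 0.0942 and 0.0632 CPM in cello and 0.181 and 0.285 CPM in wild-type. A count of 0 would have allowed up to 3 reads, so cello replicate 2 sat at that limit. Hes5 (chromosome 4, 154960923 to 154962371, plus strand) did not reach 1 CPM in any library and was not tested. Its summed rate was 7 reads in cello and 21 in wild-type, a ratio of 0.341 with an exact 95% interval from 0.122 to 0.832. That interval covers counting error in the reads only, not the spread between cochleae. Opposite to Hes5 runs Gm20421, listed at 0, which shares 31.8% of the exon bases of Hes5.

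**Figure D2:**
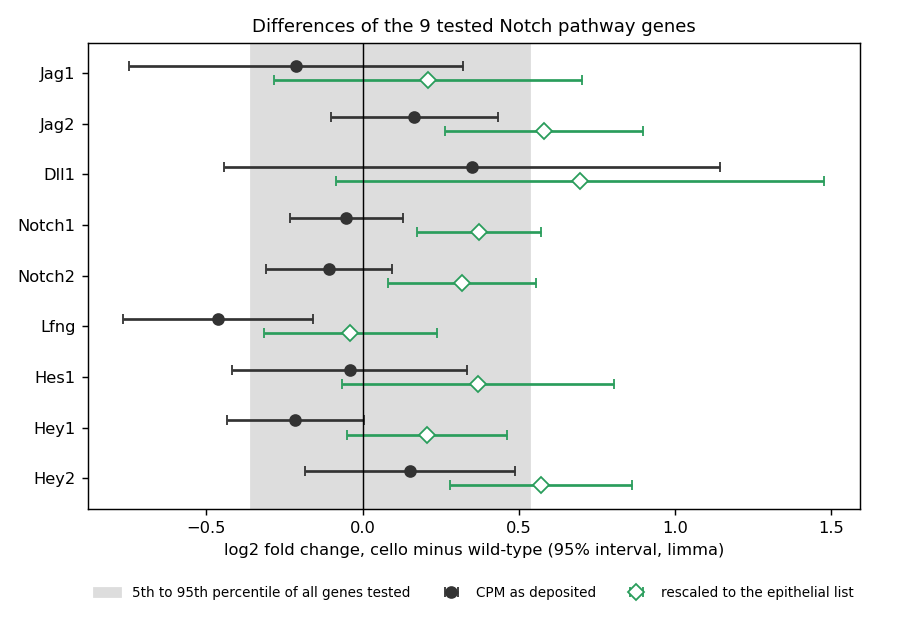
Log2 fold change (cello minus wild-type) of the 9 tested genes with 95% intervals from limma, for CPM as deposited (filled circles) and after each library was rescaled to the median of 30 epithelial genes (open diamonds), over the 5th to 95th percentile of all genes tested (grey). Lfng has the lowest value on the deposited scale (-0.46) and lies at -0.039 on the epithelial scale.

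Levels can be set against each other only per length. Per kilobase of annotated exons, the mean CPM over the 4 libraries was 21.6 for Lfng, 12.7 for Hey1, 11.2 for Notch2, 8.56 for Jag1, 6.05 for Hes1, 5.62 for Notch1, 5.51 for Hey2, 2.35 for Jag2, 0.523 for Dll1 and 0.114 for Hes5. Lfng was thus the most abundant transcript per length, from 16.3 to 25.4 over the libraries. Hey1 and Notch2 overlapped in their ranges over the 4 libraries, as did Jag1 and Hes1, Hes1 and Notch1, and Notch1 and Hey2. The other neighbours in the order did not overlap. Jag1 stood at 2.46 and 4.03 times Jag2 per kilobase in cello and at 3.95 and 4.29 times in wild-type.

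Epithelial transcripts as a whole had lower values in cello, and Lfng lay near them. In CPM of a whole cochlea, fewer cells of a type, less RNA per cell and a larger share of other tissue cannot be told apart. An epithelial list of 30 genes was measured in full, and the mean of each was lower in cello, against 56.6% of all genes tested. The median of the 30 was -0.43 on the log2 scale. In limma 0 of the 30 passed and 24 (80%) reached an unadjusted p under 0.05, against 10.9% of all genes. EdgeR called 0 and DESeq2 called 5, against 0% and 1.32% of all genes. Epcam, a cell adhesion gene of the list, had 199 and 220 CPM in cello, against 285 and 293 CPM in wild-type. Their summed level was 1370 and 1444 CPM in cello and 1777 and 1915 CPM in wild-type. Rescaling every library to this list lifted the median log2 fold change of all genes by 0.41. On that scale Lfng stood at -0.039 (95% interval -0.31 to 0.24), Hey1 at 0.21 (-0.050 to 0.46) and Jag1 at 0.21 (-0.28 to 0.70). Notch1, Notch2, Hes1 and Hey2 then stood at 0.37, 0.32, 0.37 and 0.57, Jag2 at 0.58 and Dll1 at 0.70, close to the values that the lift alone gives. The direction of Hey1, Jag1, Notch1, Notch2 and Hes1 is therefore opposite on this scale.

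Supporting cell genes followed the same direction less evenly. Of 20 listed and measured, 16 (80%) had lower values, against 56.6% of all genes tested. The median of the 20 was -0.23. Groups did not overlap for 11 lower (55%) and 3 higher genes (15%), against 28.7% and 16.9% of all genes. By limma 0 passed and 8 (40%) reached an unadjusted p under 0.05, against 10.9% of all genes. EdgeR called 0 and DESeq2 called 2, against 0% and 1.32% of all genes. The 20 genes summed to 5652 and 6523 CPM in cello and 7291 and 7472 CPM in wild-type. Much of the sum was Tectb (748 and 2633 CPM in cello, 2474 and 2594 CPM in wild-type) and S100b (1664 and 715, then 975 and 927 CPM). The list also holds Sox10, which is a marker of Schwann cells as well. The 9 outer hair cell genes had a median of -0.53, with a summed level of 119 and 103 CPM in cello and 254 and 251 CPM in wild-type. Atoh1, the transcription factor that starts hair cell fate, was at 0.188 and 0.274 CPM in cello and 0.241 and 0.522 CPM in wild-type. In the opposite direction, the 10 Schwann cell genes had a median of 1.18, and they summed to 4034 and 4980 CPM in cello and 1078 and 2772 CPM in wild-type. No list had a member at 0 in all libraries. The part of these lists in the values of the Notch genes was not tested.

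The remaining lists had medians of -0.55 for genes of all hair cells, -0.12 for inner hair cells, 0.23 for endothelium, 0.048 for pericytes and smooth muscle, 1.27 for neurons, 0.16 for bone, 0.084 for cartilage, 0.17 for fibrocytes, -0.049 for macrophages and 0.12 for erythroid cells. Some lists varied widely within a genotype. Neuron genes summed to 754 and 935 CPM in cello and to 231 and 605 CPM in wild-type. Bone genes summed to 3190 and 1190 CPM in cello and to 1527 and 1687 CPM in wild-type. For fibrocytes the sums were 3707 and 1716 CPM in cello and 2094 and 1857 CPM in wild-type. By limma and edgeR 0 genes of any marker list passed. Besides the epithelial and supporting cell genes counted above, DESeq2 called 4 outer hair cell genes, 3 Schwann cell genes and 2 genes of all hair cells. It also called 1 of pericytes and 1 of fibrocytes. It called 1.32% of all genes tested. An unadjusted p under 0.05 in limma was reached by 10.9% of all genes tested. The counts were 7 of 9 for all hair cells, 7 of 10 for Schwann cells and 6 of 9 for outer hair cells. They were 3 of 10 for neurons, 2 of 5 for inner hair cells, and 1 each for pericytes, cartilage and fibrocytes. Endothelium, bone, macrophages and erythroid cells had 0.

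**Figure D3:**
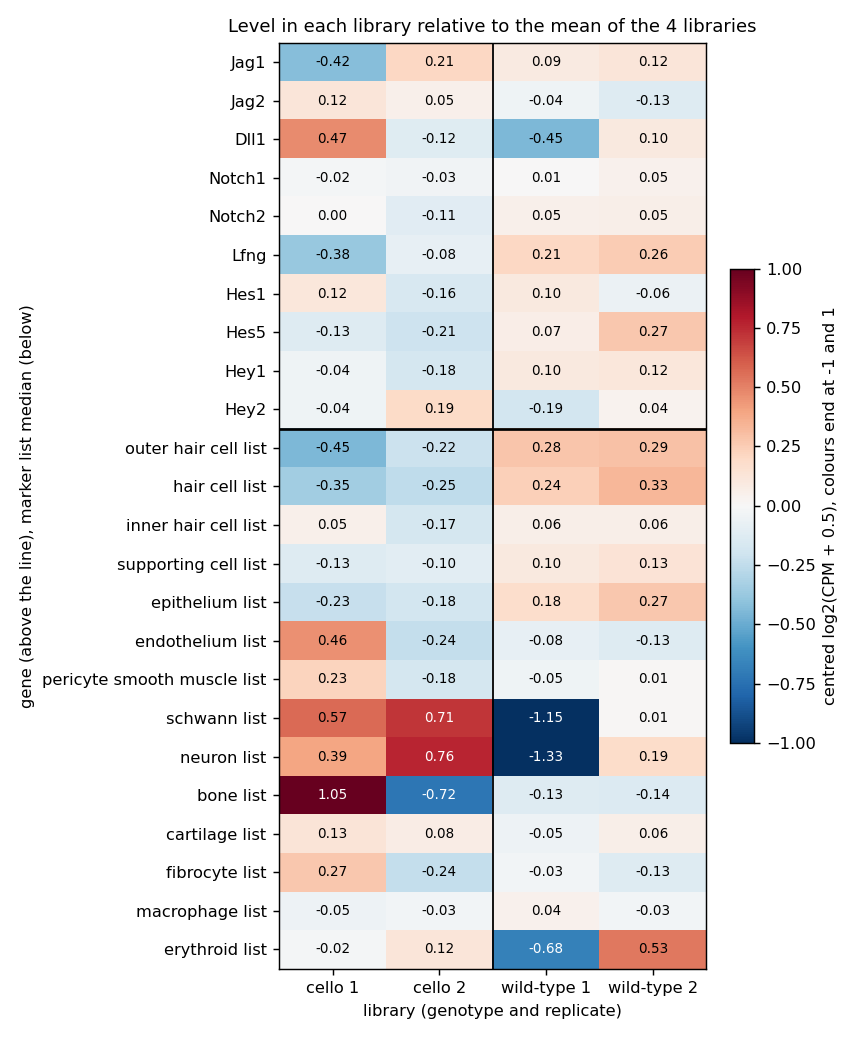
Log2(CPM + 0.5) of each gene (above the line) and the median of each marker list (below it) in the 4 libraries, relative to the mean of the 4, with cello on the left. Jag1 and Lfng are lowest in cello replicate 1 (-0.42 and -0.38). The lists for bone (1.05), endothelium (0.46), fibrocytes (0.27), pericytes and smooth muscle (0.23) and cartilage (0.13) each have their highest median in that library.

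By the pattern over the 4 libraries, Lfng was most like 2 epithelial genes and a hair cell gene. Likeness was taken as the Euclidean distance between centred log2 values, searched among 205 tested genes of the marker and pathway lists. Nearest to Lfng were the tight junction genes Cldn3 (distance 0.057) and Cldn4 (0.083), and Cib2 (0.090), which encodes a partner of the mechanotransduction channel. Cldn3 stood at 27.6 and 32.9 CPM in cello and 39.6 and 42.6 CPM in wild-type. Nearest to Hey1 were Gjb6 (0.044), a connexin gene of supporting cells, Tle3 (0.058) and Fgfr3 (0.081), a receptor gene of pillar and Deiters' cells. Fgfr3 stood at 91.8 and 82.1 CPM in cello and 104 and 108 CPM in wild-type. Jag1 and Dll1 had no gene as near, with Neurl1a (0.19) closest to Jag1 and Dner (0.19) closest to Dll1. With 4 libraries these distances only describe.

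The other genes of the pathway were also measured. Of 61 listed, 56 were tested, and by limma 0 passed in either direction. EdgeR and DESeq2 called 0 of them as well. An unadjusted p under 0.05 in limma was reached by 1 (1.79%, against 10.9% of all genes). The median log2 fold change was -0.039, with 33 lower and 23 higher values (58.9% lower, against 56.6% of all genes tested). Groups did not overlap for 15 lower (26.8%) and 4 higher genes (7.14%), against 28.7% and 16.9% of all genes.

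Mib1, the ubiquitin ligase that makes Notch ligands competent to signal, had the smallest unadjusted p of these. It had 143 and 159 CPM in cello, against 125 and 128 CPM in wild-type, higher in both cello libraries. The log2 fold change of Mib1 was 0.25 (SE 0.086), with an unadjusted p of 0.032 and an adjusted p of 0.441 in limma. Further ligand genes were Dll4, an endothelial ligand, and Dlk2, a non-canonical one. Dll4 stood at 8.29 and 5.65 CPM in cello and 6.26 and 4.89 CPM in wild-type (log2 fold change 0.29, and 0.027 without cello replicate 1 or 0.12 without wild-type replicate 2). Dlk2 stood at 2.05 and 3.67 CPM in cello and 4.81 and 4.25 CPM in wild-type, with a log2 fold change of -0.62 (SE 0.28; limma, adjusted p = 0.485). Leaving out 1 library moved Dlk2 between -0.98, without cello replicate 2, and -0.27, without cello replicate 1. Dll3 had 1 to 7 reads a library, Dlk1 was listed at 0 in all 4, and Hes2, Hes3 and Hes7 had at most 6 reads, so these 5 genes were not tested.

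The receptors of vessel cells were high in 1 cello library. Notch4, the receptor of endothelial cells, had 38.2 and 16.7 CPM in cello, against 23.1 and 17.7 CPM in wild-type, high in cello replicate 1 alone. Its log2 fold change was 0.32 (SE 0.39; limma, adjusted p = 0.778), and -0.27 without cello replicate 1. The 14 endothelial genes summed to 499.5 and 325 CPM in cello and to 364 and 356 CPM in wild-type, also highest in cello replicate 1. Notch3, the receptor of pericytes and smooth muscle, stood at 41.9 and 36.4 CPM in cello and 36.9 and 36.4 CPM in wild-type (log2 fold change 0.089, and -0.0099 without cello replicate 1).

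The fringe relatives of Lfng had values nearer to 0. Rfng (radical fringe) stood at 27.3 and 23.3 CPM in cello and 27.3 and 28.3 CPM in wild-type, a log2 fold change of -0.14 (SE 0.11) that was -0.028 without cello replicate 2 and -0.25 without cello replicate 1. Mfng (manic fringe) stood at 8.01 and 6.19 CPM in cello and 7.96 and 6.76 CPM in wild-type, and its log2 fold change was -0.055 (SE 0.18). In limma both missed the threshold, and the difference between the fringe genes was not tested. Downstream, Rbpj, the DNA-binding partner of the Notch intracellular domain, stood at 21.2 and 27.0 CPM in cello and 31.1 and 25.6 CPM in wild-type, with overlapping groups and a log2 fold change of -0.23 (SE 0.16). That of Rbpj was -0.061 when cello replicate 1 was left out, -0.40 when cello replicate 2 was, -0.092 when wild-type replicate 1 was and -0.37 when wild-type replicate 2 was. Tle3, a corepressor that Hes proteins recruit, had a log2 fold change of -0.21 (limma, unadjusted p = 0.071), and -0.12 without cello replicate 2. Fbxw7, a ubiquitin ligase subunit that targets the Notch intracellular domain, had one of 0.20 (SE 0.13), which was 0.049 when wild-type replicate 1 was left out and 0.35 when wild-type replicate 2 was.

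Effectors outside the 10 genes had lower values or lay near 0. Heyl, the third Hey family member, stood at 70.3 and 53.7 CPM in cello and 72.3 and 78.9 CPM in wild-type, lower in both cello libraries, with a log2 fold change of -0.30 (SE 0.14; limma, adjusted p = 0.509). Without cello replicate 2 the value of Heyl was -0.10, and without cello replicate 1 it was -0.49. Hes6, which opposes Hes1 and is expressed in hair cells, stood at 15.1 and 16.7 CPM in cello and 18.5 and 19.1 CPM in wild-type, with one of -0.23 (SE 0.11; limma, adjusted p = 0.492). Nrarp, a Notch target that dampens the pathway, stood at 2.21 and 2.42 CPM in cello and 2.23 and 2.42 CPM in wild-type, with one of -0.0040 (SE 0.19). The promoter windows of Nrarp and Hes6 did not hold the RBPJ core, and that of Hes7 held 1. After rescaling to the epithelial list, Heyl (0.13), Hes6 (0.18), Rbpj (0.19), Rfng (0.28), Mfng (0.35), Nrarp (0.35) and Tle3 (0.21) all had positive log2 fold changes. Only 4.16% of all genes tested had negative ones on that scale, where the median of all genes was 0.38, so positive values were the background.

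**Figure D4:**
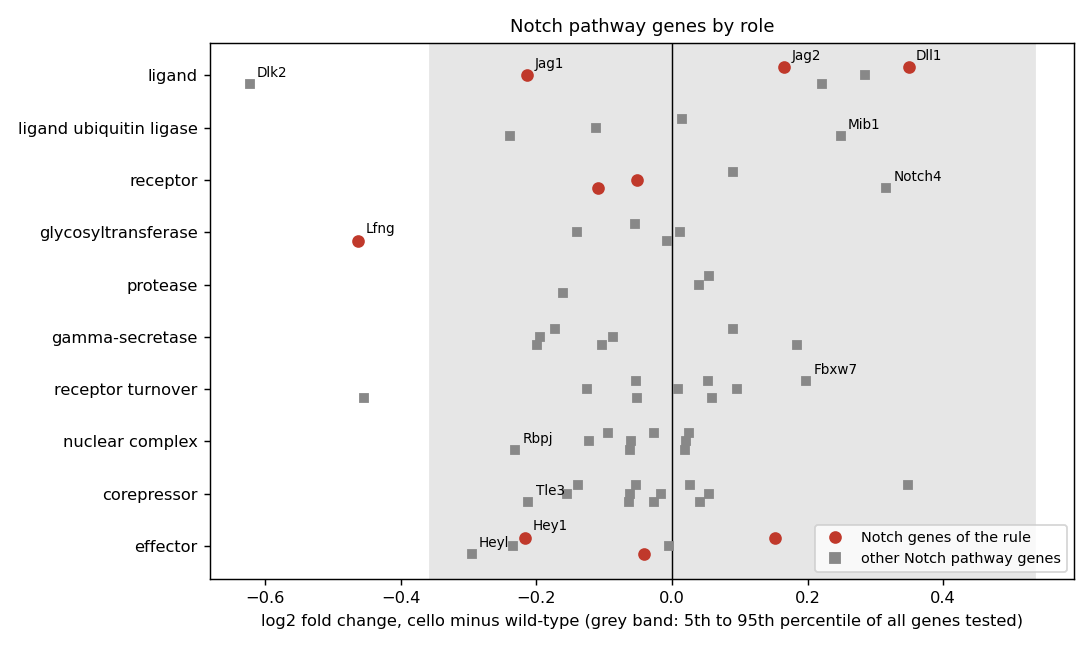
Log2 fold change (cello minus wild-type) of the 9 tested Notch genes (red circles) and 56 other tested pathway genes (grey squares) by role, over the 5th to 95th percentile of all genes tested (grey band). Lfng (-0.46) and Dlk2 (-0.62, and -0.27 without cello replicate 1) lie below the band, as does the receptor turnover gene Dtx1 (-0.45), and no pathway gene lies above it.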

How the data were processed

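The deposited files hold CPM per gene. The authors' scaling took in every counted alignment, and 5 lines without a gene are part of it; genes held 70.0% to 72.8% of alignments, and the 5 lines were kept out of the tests. The submitters' processing notes name TopHat and GRCm38. No counter, strand setting or annotation release is stated in those sources. Dividing by the lowest nonzero value of a library gave whole reads for 100% of values (tolerance 0.001 of a read). GENCODE M21 (GRCm38) gave symbols for 36504 of 37239 identifiers, with positions and exon lengths.

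The 14721 genes that reached 1 CPM in 2 or more libraries were tested on log2(CPM + 0.5), a scale that understates the change of low genes. The main test was limma 3.58.1 in R 4.3.3, moderated with a mean-variance trend and two-sided, and Benjamini-Hochberg values over all genes tested were held to 0.05. As alternatives, the recovered read counts went into edgeR 4.0.16 (TMM, quasi-likelihood), which called 0 genes, and into DESeq2 1.42.0, which called 195 and left 1142 adjusted p undefined. The fits were tested on simulated data. There limma and edgeR each recovered 72% of 2-fold changes, and DESeq2 recovered 81%. False calls were 18 of 184 in limma, 21 of 187 in edgeR and 56 of 233 in DESeq2. Changes below 2-fold were not simulated. Figures were drawn with matplotlib 3.10.9. The floor of 3 reads covers counting error only.

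The members, pathway lists and marker lists were chosen with earlier results of these data known. All 10 members are named. Other pathway genes are named if among the 3 smallest unadjusted p in their direction, or if they are Dll4, Dll3, Notch3, Notch4, Heyl, Hes6, Rbpj, Nrarp, Mfng or Rfng. Dtx1, Dlk1, Hes2, Hes3 and Hes7 and the single marker genes were picked after their values were seen. Alternatives covered 2 pseudocounts, 2 filters, 5 rescalings, 2 forms of moderation, a replicate block, edgeR, DESeq2 and the omission of each library in turn.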

Additional observations from a re-analysis of the deposited data

How the results depend on the processing

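Under 18 other settings, no Notch member and no other pathway gene was called by any of 17, the exception being rescaling to the epithelial list. That rescaling sets the epithelial genes level by construction and called 5331 of all genes, 4 of the members and 24 of the other pathway genes. The count over all genes was 0 in limma, 195 in DESeq2, and 0 to 90 when a library was left out (90 without wild-type replicate 2, all higher). The median over the members was -0.052. It was -0.0112 with TMM, -0.0129 with median-of-ratios, -0.0113 in edgeR, -0.0130 in DESeq2, -0.020 over genes without haemoglobin and mitochondrial genes, 0.37 after epithelial rescaling, and -0.11 to -0.044 when a library was left out. The sample labels give replicate numbers and do not state whether these pair the genotypes. Over genes, same-numbered libraries deviated together with a correlation of 0.13. With the replicate block 0 genes were called, the median over the members was -0.052, and 1902 genes reached an unadjusted p under 0.05 against 1603 without it. Lfng had an adjusted p of 0.241 in limma with that block.

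Some values changed sign. After epithelial rescaling the log2 fold changes were 0.21 for Jag1, 0.37 for Notch1, 0.32 for Notch2, 0.37 for Hes1, 0.21 for Hey1, 0.13 for Heyl, 0.18 for Hes6, 0.19 for Rbpj, 0.35 for Nrarp, 0.35 for Mfng, 0.28 for Rfng and 0.21 for Tle3. Nrarp stood at 0.0296 with TMM, 0.0281 with median-of-ratios, 0.0235 over genes without haemoglobin and mitochondrial genes, 0.0371 in edgeR and 0.0351 in DESeq2. Hes1 stood at 0.0008 in edgeR. Leaving out a library gave ranges of -0.18 to 0.095 for Hes1, -0.53 to 0.10 for Jag1, -0.23 to 0.12 for Mfng, -0.0099 to 0.19 for Notch3, -0.27 to 0.90 for Notch4 and -0.057 to 0.049 for Nrarp. In such fits the lone library of a genotype is assumed to vary like the others. Epithelial rescaling raised the log2 fold changes by 0.41 at the median of all genes, so small negative values turned positive by construction. TMM moved that median from -0.032 to 0.0069. Why leaving out a library changed a sign was not tested. Lfng (-0.61 to -0.039), Jag2 (0.12 to 0.58) and Hey2 (0.035 to 0.57) kept their direction in all 18 settings. Dll1 (0.051 to 0.70) did so in the 17 that tested it. The value of -0.039 for Lfng came from epithelial rescaling, with a 95% interval from -0.31 to 0.24 (limma). Of the other pathway genes, Mib1, Dll4, Fbxw7 and Dlk2 also kept theirs wherever tested. Depth limits Hes5 and Dll1 most, as both rest on few reads.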
